A study of Mus musculus with 407 samples.

Results

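Chemokines and their receptors were followed as a family of 40 genes, 26 ligands and 14 receptors, across skeletal muscle and age in the mouse. The members were taken by symbol from a list of these genes, and all 40 were among the 24458 symbols of the count tables. RNA had been sequenced from 4 muscles, the diaphragm and, of the hind limb, the gastrocnemius, tibialis anterior and soleus. They came from untreated C57BL/6J mice, an inbred laboratory strain, of both sexes, aged 6, 12, 18 and 21 months and, as the oldest groups, 24 and 27 months. The 407 libraries, each from 1 muscle of 1 mouse, formed 48 groups of 6 to 10. Mice had been bought at several ages and the tissues of an age group taken on 1 day, so that age and day of collection cannot be told apart. Muscles of 1 mouse are not tied to each other in the labels, and p-values measure the spread between these libraries.

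Chemokines are small secreted proteins that draw white blood cells along a gradient, and they act through receptors that span the cell membrane and couple to G proteins. The ligands followed here are grouped as CC, CXC and CX3C by the spacing of their first cysteines. The receptor Xcr1 belongs to a further group, XC. In muscle, ligands made by resident macrophages, endothelium, connective tissue cells and fibres recruit neutrophils, monocytes and lymphocytes after injury. Most of the receptors are carried by white blood cells. In RNA from whole muscle, fewer cells of a type and less RNA per cell cannot be told apart.

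Many of these genes are neighbours. Of the 40 members, 24 lay in 6 clusters in which the gaps were under 500 kb (mm10). Ccl2, Ccl7, Ccl11, Ccl12 and Ccl8 lay within 81.2 kb of chromosome 11, Cxcl9 and Cxcl10 within 27.6 kb of chromosome 5, and Ccr9, Cxcr6, Xcr1, Ccr1, Ccr3 and Ccr2 within 341.9 kb of chromosome 9. The 250 bases before the start are shown for 5 ligands called most often with age (below) that had a promoter entry, and for Cxcl1, a known NF-kB target. Sequences are from RefSeq (GRCm38.p6), 5′ to 3′ on the strand of the gene. Capitals mark matches on either strand to the NF-kB consensus, the core of the ISRE, the element bound by interferon regulatory factors, the AP-1 site (TGANTCA) or the TATA box (TATAAA), and adjoining or overlapping matches run together. Cxcl10 lies at chr5:92348890-92349139, minus strand, Cxcl1 at chr5:90890995-90891244, plus strand, Ccl8 at chr11:82114935-82115184, plus strand, Ccl12 at chr11:82101595-82101844, plus strand, Cxcl13 at chr5:95956689-95956938, plus strand and Cx3cl1 at chr8:94771930-94772179, plus strand.
Cxcl10: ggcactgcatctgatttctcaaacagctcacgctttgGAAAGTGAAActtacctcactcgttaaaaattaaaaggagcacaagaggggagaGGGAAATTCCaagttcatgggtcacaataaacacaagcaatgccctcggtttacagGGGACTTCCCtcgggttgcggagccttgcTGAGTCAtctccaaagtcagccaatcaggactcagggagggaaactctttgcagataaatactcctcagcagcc
Cxcl1: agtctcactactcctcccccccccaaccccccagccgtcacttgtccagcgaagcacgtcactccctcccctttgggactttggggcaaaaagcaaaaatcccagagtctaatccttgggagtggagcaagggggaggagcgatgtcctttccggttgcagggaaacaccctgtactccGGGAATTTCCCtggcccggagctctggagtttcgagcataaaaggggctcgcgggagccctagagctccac
Ccl8: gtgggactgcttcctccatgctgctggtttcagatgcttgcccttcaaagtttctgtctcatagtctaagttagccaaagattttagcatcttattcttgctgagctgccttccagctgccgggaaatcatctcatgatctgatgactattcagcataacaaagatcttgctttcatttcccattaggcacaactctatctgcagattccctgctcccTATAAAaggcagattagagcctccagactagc
Ccl12: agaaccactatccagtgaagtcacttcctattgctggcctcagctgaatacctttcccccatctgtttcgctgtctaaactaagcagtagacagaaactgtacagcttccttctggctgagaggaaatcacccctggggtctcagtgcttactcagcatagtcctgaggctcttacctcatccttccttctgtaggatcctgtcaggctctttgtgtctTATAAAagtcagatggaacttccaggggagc
Cxcl13: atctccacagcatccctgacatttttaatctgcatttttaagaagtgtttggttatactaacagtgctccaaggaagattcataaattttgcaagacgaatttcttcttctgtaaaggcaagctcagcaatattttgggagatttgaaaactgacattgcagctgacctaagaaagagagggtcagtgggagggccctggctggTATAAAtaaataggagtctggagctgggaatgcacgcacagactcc
Cx3cl1: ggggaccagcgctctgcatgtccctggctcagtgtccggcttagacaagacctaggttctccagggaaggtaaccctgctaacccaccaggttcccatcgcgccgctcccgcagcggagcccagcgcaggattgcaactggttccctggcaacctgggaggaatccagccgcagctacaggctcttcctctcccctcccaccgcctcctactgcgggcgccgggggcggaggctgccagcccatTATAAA

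The window of Cxcl10 held all motifs but the TATA box, with NF-kB matches 159 to 150 and 103 to 94 bases before the start, an ISRE match at 213 to 204 and an AP-1 match at 74 to 68. In Cxcl1 overlapping NF-kB matches spanned 71 to 61. Ccl8 and Ccl12, neighbours on chromosome 11, had their TATA box at 32 to 27 and 31 to 26. Of the 30 members with a promoter entry, 28 had 1 and Ccl25 and Ccr6 had 2. Of these 32 entries, 6 held an NF-kB match, 3 an ISRE match, 3 an AP-1 match and 9 a TATA box. Among 32851 mouse promoters, windows of the same length held these in 3.9%, 2.98%, 6.75% and 12.4%. A match is a description of letters, not a measured site.

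Levels spanned several orders of magnitude. They are given as CPM, counts scaled to the size of the library, and between genes as CPM per kb of exon. Over all libraries the highest medians were those of Cxcl14, a ligand of epithelia and muscle (19.6 CPM per kb), Cxcl12, which holds stem cells and lymphocytes in place through Cxcr4 (15.7), and Ccl11, an eosinophil attractant (10.4). Pf4, a platelet chemokine, followed at 3.23 CPM per kb and Ccl6 at 3.11. The receptors were lower. Cxcr4 led them with 1.31 CPM per kb, ahead of Ccr2, the receptor of inflammatory monocytes, with 0.589, and Xcr1 and Cxcr5 were at 0.0369 and 0.0386. Ccl4, Cxcl2, Cxcl5, Ccr6 and Ccr10 had a median of 0, with no count in 256, 243, 226, 206 and 269 libraries. Libraries held 38583802 to 300089909 counts (median 72766895), so that the rarest members rested on few reads.

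**Figure D1:**
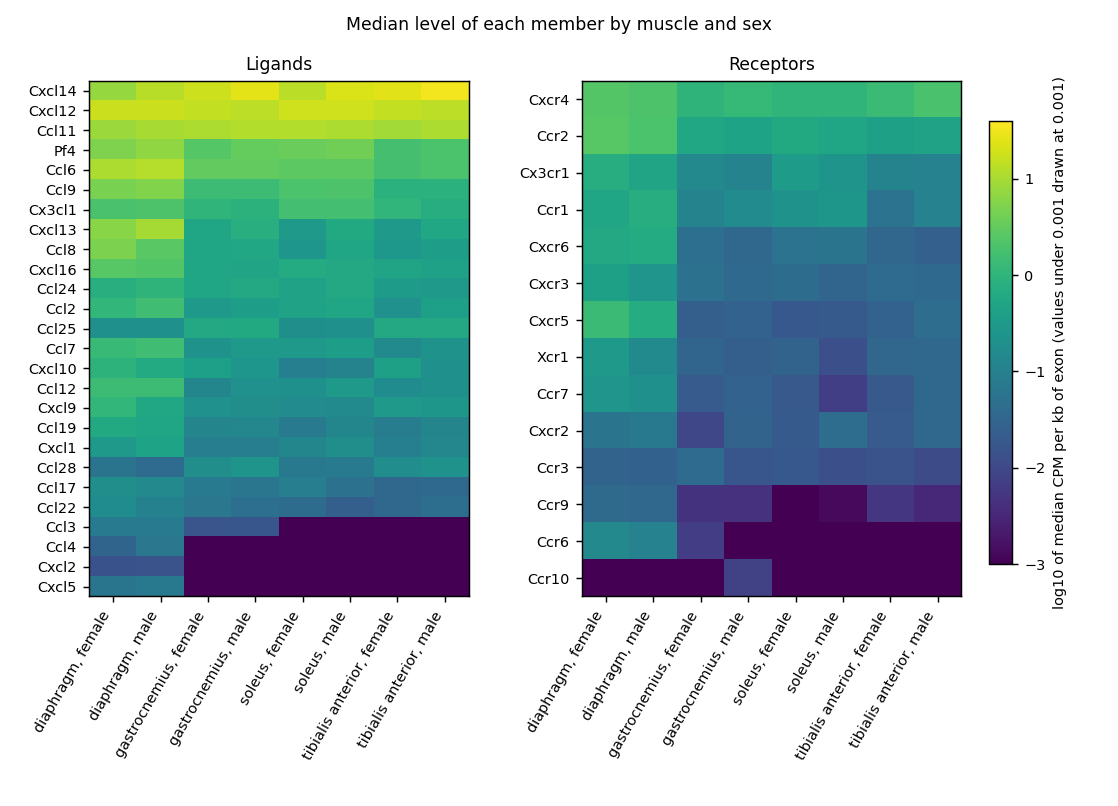
Median level of the 40 members in the 8 combinations of muscle and sex, as log10 of CPM per kb of exon, with values below 0.001 drawn at 0.001. Cxcl14, Cxcl12 and Ccl11 are high in every column, and most receptors are highest in the diaphragm.

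Most members were higher in the diaphragm than in the other muscles. Of 39 tested, 32 were higher and 3 lower in females, where 31.7% and 15.9% of all genes were. In males 34 were higher and 3 lower, against 28.0% and 18.7% of all genes. A gene was called where the adjusted p was below 0.05 and the fold change above 1.5, by the quasi-likelihood test of edgeR, with p-values adjusted after Benjamini and Hochberg over all genes tested. The 3 lower members were in both sexes Ccl25, the thymic and intestinal ligand of Ccr9, Ccl28, a mucosal ligand, and Cxcl14.

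Genes of B cell areas differed most. Cxcr5, which guides B cells to follicles, had a median of 4.00 CPM in female diaphragm and 0.0743 CPM in the other muscles, and of 2.05 and 0.0924 CPM in males, log2 differences of 5.75 ± 0.21 (SE) and 4.50 ± 0.21. Its ligand Cxcl13 had medians of 7.09 and 0.413 CPM in females (4.52 ± 0.16) and of 10.9 and 0.733 CPM in males (4.12 ± 0.15). Ccr6, a receptor of B cells and some T helper cells, differed by 5.74 ± 0.30 and 5.29 ± 0.30. Its medians were 0.275 CPM in female and 0.211 CPM in male diaphragm and 0 CPM in the other muscles. Markers of other cell types moved with these genes. The sum of 6 B cell markers was 0.787 to 401 CPM (median 26.8) in female and 0.361 to 116 CPM (median 13.1) in male diaphragm, with medians of 0.467 to 0.886 CPM in the limb muscles. Macrophage markers had medians of 240.5 and 245 CPM in the diaphragm and 53.4 to 90.9 CPM elsewhere, and those of mesothelium, which covers the diaphragm, 83.3 and 92.7 CPM against 0.164 to 0.406 CPM. Their part in the differences was not tested.

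In the limb muscles more members were lower than higher, each being compared with a mean that includes the diaphragm. In the gastrocnemius 3 were higher and 22 lower in females (10.3% and 12.7% of all genes), and 2 and 20 in males (11.8% and 11.9%). In the soleus these were 1 and 15 in females (11.1% and 13.5%) and 2 and 10 in males (10.4% and 12.8%). In the tibialis anterior they were 3 and 25 in females (8.08% and 24.8%) and 3 and 21 in males (10.5% and 20.7%). Of the 2 called higher in the male soleus, Ccr9 had a median of 0.00737 CPM there and 0.0324 CPM in the other muscles.

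Ccr6 differed most among the lower members of the soleus, by -2.33 ± 0.57 in females and -2.28 ± 0.50 in males, followed by Cxcr5 in females (-2.01 ± 0.30) and Cxcl13 in males (-1.41 ± 0.18). In the gastrocnemius Cxcr5 differed by -1.91 ± 0.30 and -1.85 ± 0.27, followed by Cxcl2 (-1.59 ± 0.40) and Ccl12 (-1.57 ± 0.20) in females and by Cxcl5 (-1.69 ± 0.52) and Ccr9 (-1.54 ± 0.37) in males. Several of these were near the floor. Ccr6 had a median of 0 CPM in the soleus, against 0.0157 CPM in females and 0.0139 CPM in males elsewhere. In the gastrocnemius the median of Cxcl2 was 0 CPM in females, as in their other muscles. In males Cxcl5 was at 0 against 0.0137 CPM and Ccr9 at 0.0250 against 0.0379 CPM. In the tibialis anterior Ccr1, a receptor of monocytes and neutrophils, differed by -2.03 ± 0.14 in females and Cxcr6, a receptor of effector T cells, by -2.23 ± 0.22 in males. A few members stood out the other way. Ccl25 was higher by 1.04 ± 0.08 and 0.97 ± 0.11 in the gastrocnemius and by 1.04 ± 0.08 and 0.99 ± 0.12 in the tibialis anterior of females and males. Ccl28 was higher in the same muscles, by 1.00 ± 0.15, 1.26 ± 0.14, 0.91 ± 0.15 and 1.26 ± 0.14. Cxcl14 was higher in the tibialis anterior, with medians of 45.2 CPM in females and 60.3 CPM in males (0.98 ± 0.04 and 0.82 ± 0.08). In the soleus Cx3cr1, the fractalkine receptor of monocytes and resident macrophages, was higher in females (1.58 against 0.787 CPM, 0.66 ± 0.10) and its ligand Cx3cl1 in males (0.63 ± 0.06).

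With age nearly all members that passed the test were higher. Each older age was compared with 6 months in each muscle and sex, with 38 members tested in the diaphragm of females, 32 in soleus, 31 in gastrocnemius and 29 in tibialis anterior, and 39, 32, 31 and 27 in males. A member could enter a test through its level in the old groups alone. Of 1295 tests 156 passed, 155 of them towards a higher level. In females 0, 3, 17, 25 and 33 of 130 tests passed at 12, 18, 21, 24 and 27 months. Over all genes, 0.0861%, 1.29%, 1.75%, 2.19% and 3.0% of tests were called higher at these ages. In males 0, 0, 19, 31 and 28 of 129 passed, 1 of those at 24 months towards a lower level (0.546% over all genes), and 0.121%, 0.363%, 2.58%, 2.41% and 2.93% of tests over all genes were called higher. Where edgeR called 0, an unadjusted p was below 0.05 in 14 tests (females, 12 months), 8 (males, 12 months) and 15 (males, 18 months). DESeq2 called 1, 1 and 2 of them and limma-voom 0, 0 and 0.

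At 27 months 14 of 31 members were higher in the female gastrocnemius (4.08% of all genes) and 14 of 29 in the female tibialis anterior (5.93%). In males 12 of 31 were higher in the gastrocnemius (3.88%), 11 of 39 in the diaphragm (4.16%) and 4 of 27 in the tibialis anterior (2.81%). The soleus had 2 of 32 in females (1.72%) and 1 of 32 in males (0.808%), and the female diaphragm 3 of 38 (0.543%). The median log2 fold change of the members tested was 1.00, 0.28, 0.49 and 0.53 in tibialis anterior, soleus, gastrocnemius and diaphragm of females, and 0.30, 0.35, 0.95 and 1.5 in those of males. Over all genes these medians lay between -0.03 and 0.03. Leaving out a replicate number, which takes out its library at every age, moved these counts. Without replicate 1 the 12 of the male gastrocnemius became 5, without replicate 8 the 11 of the male diaphragm became 4, without replicate 4 the 4 of the male tibialis anterior became 2, and the 3 of the female diaphragm became 0 without replicate 3.

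**Figure D2:**
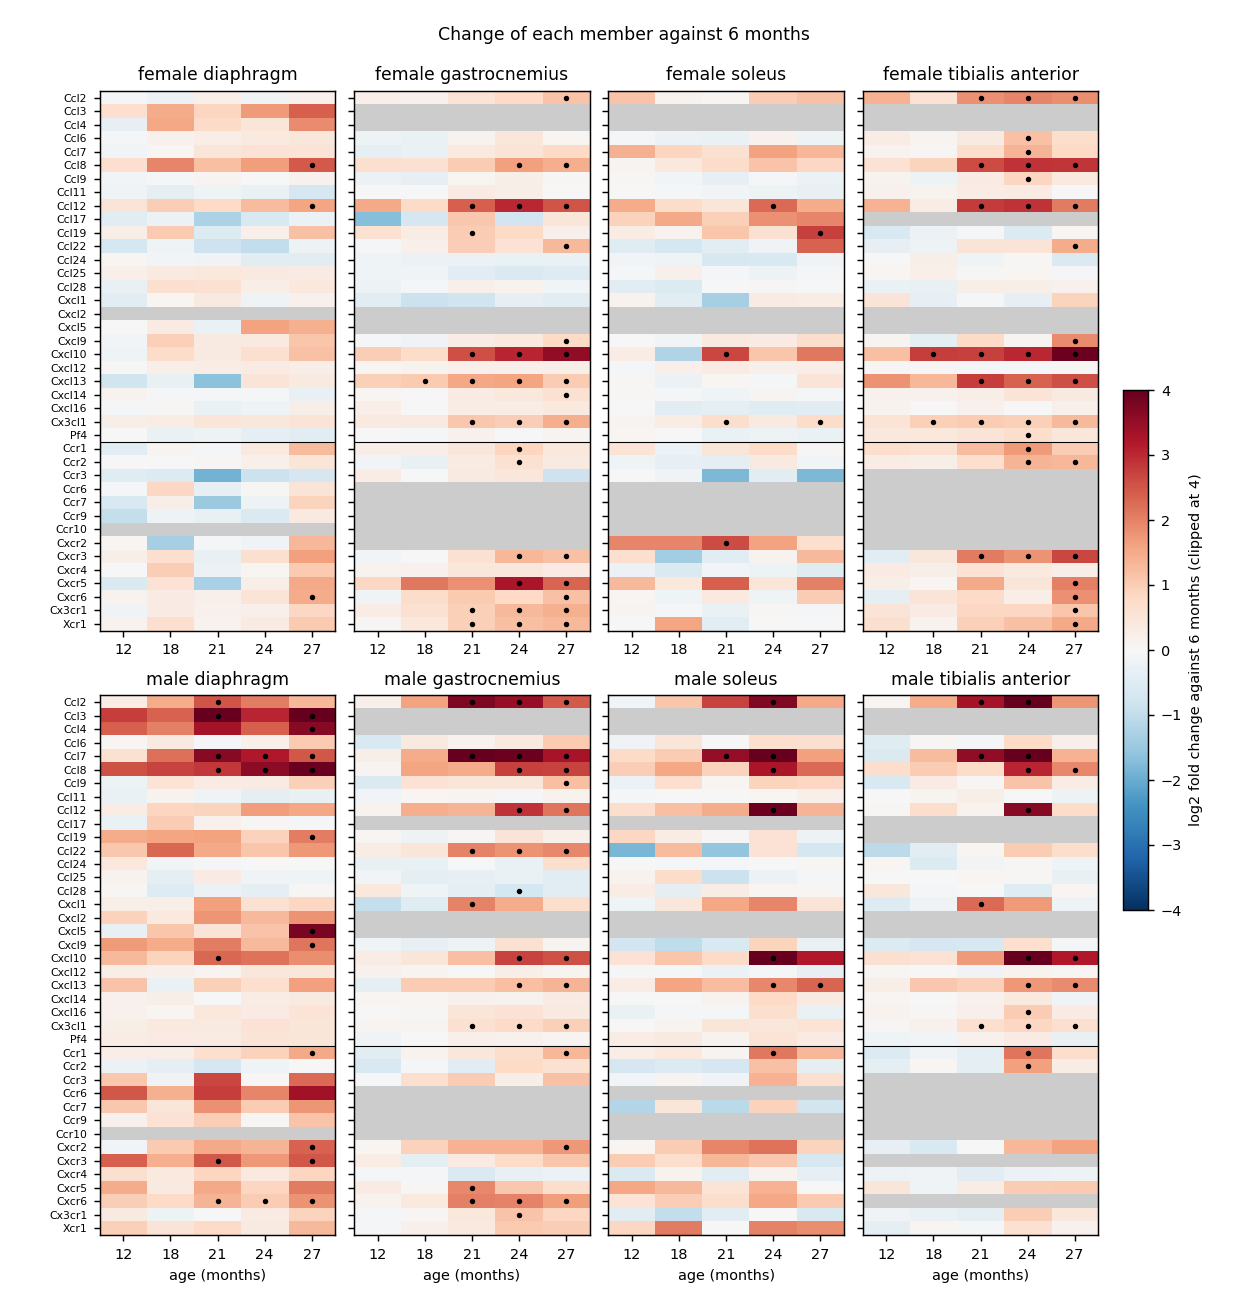
Log2 fold change of each member at 12, 18, 21, 24 and 27 months against 6 months in each muscle and sex, with colours limited at 4 in either direction, dots for members called and grey for members not tested. Nearly all dots lie at 21 months or later, and 1 of the 156 (Ccl28) stands for a lower level.

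Of the 40 members 28 were called at some age in at least 1 muscle and sex, 20 of 26 ligands and 8 of 14 receptors, and 26.7% of all genes tested were. Ccl8, Ccl12 and Cxcl10 were called in 7 of the 8 combinations, Ccl2 and Ccr1 in 6, and Ccl7, Cxcl13, Cx3cl1 and Cxcr6 in 5. Fewer of these calls were kept in every alternative setting but the stricter limits (below). Such calls covered 5 combinations for Cx3cl1, 4 for Ccl12, Cxcl10 and Cxcl13, and 3 for Ccl2 and Ccl8. For Cxcr6 they covered 2, and for Ccl7 and Ccr1 1 each. Ccl11, Ccl17, Ccl24, Ccl25, Cxcl2, Cxcl12, Ccr3, Ccr6, Ccr7, Ccr9 and Cxcr4 were called in none, and Ccr10 was tested in none. In the cluster of chromosome 11, Ccl11 was thus called in 0 combinations while its neighbours Ccl7 and Ccl12 on either side were called in 5 and 7.

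Cxcl10, an interferon-induced ligand that draws activated T cells through Cxcr3, rose in gastrocnemius and tibialis anterior. In the female gastrocnemius it was at 0.0646 to 0.324 CPM (median 0.133, n = 8) at 6 months, 0.465 to 1.84 CPM (median 0.622, n = 8) at 21 months and 0.911 to 2.75 CPM (median 1.86, n = 10) at 27 months. In the female tibialis anterior it was at 0.0368 to 0.276 CPM (median 0.111) at 6 and 1.31 to 4.44 CPM (median 2.06) at 27 months. The youngest and oldest groups did not overlap in either muscle. The log2 fold change at 27 months was 3.54 ± 0.42, adjusted p = 5.42e-09 (edgeR), and 3.92 ± 0.53, adjusted p = 1.71e-07, respectively. The call at 18 months in the tibialis anterior (2.76 ± 0.55) was lost on leaving out 1 replicate number (adjusted p = 0.155 without replicate 1).

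In males Cxcl10 was called in these muscles at 24 and 27 months. In the gastrocnemius it was at 0.128 to 0.475 CPM (median 0.201) at 6 and 0.675 to 2.63 CPM (median 1.26) at 27 months (2.54 ± 0.46, adjusted p = 3.33e-05), and in the tibialis anterior at 0.0633 to 0.229 CPM (median 0.108) and 0.309 to 2.77 CPM (median 1.11) (3.21 ± 0.80, adjusted p = 0.00343). Here too the groups did not overlap. At 21 months the fitted changes were 1.20 ± 0.46, adjusted p = 0.0890, and 1.72 ± 0.85, adjusted p = 0.249. The diaphragm, with young medians of 0.976 CPM in females and 0.408 CPM in males, passed once, in males at 21 months (2.30 ± 0.70, adjusted p = 0.0288), and not without replicate 3 (adjusted p = 0.155). In the female soleus it was called at 21 months (2.67 ± 0.85, adjusted p = 0.0175), a call lost with 2 of 10 replicate numbers left out. There 8 of 10 mice at 27 months were above all young ones, without a call (2.11 ± 0.81, adjusted p = 0.0596).

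Cxcl9, the neighbour of Cxcl10 with the same receptor, was called in 3 combinations at 27 months. In the female tibialis anterior it was at 0.393 to 1.14 CPM (median 0.882) at 6 and 0.480 to 14.4 CPM (median 1.19) at 27 months (1.90 ± 0.44, adjusted p = 0.00119). It was also called in the female gastrocnemius (0.81 ± 0.31, adjusted p = 0.0427) and the male diaphragm (2.13 ± 0.69, adjusted p = 0.0426), and the groups overlapped in all 3. The last 2 calls were lost with 5 and 6 replicate numbers left out in turn. Cxcr3, the receptor of both on T and NK cells, was called in the same 3 combinations. In the female tibialis anterior 8 of 10 mice at 27 months were above all young ones, with 0 to 0.0827 CPM (median 0.0415) at 6 and 0.0507 to 0.702 CPM (median 0.155) at 27 months (2.67 ± 0.63, adjusted p = 0.00144). The changes in the female gastrocnemius and male diaphragm were 1.19 ± 0.42 and 2.47 ± 0.73.

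**Figure D3:**
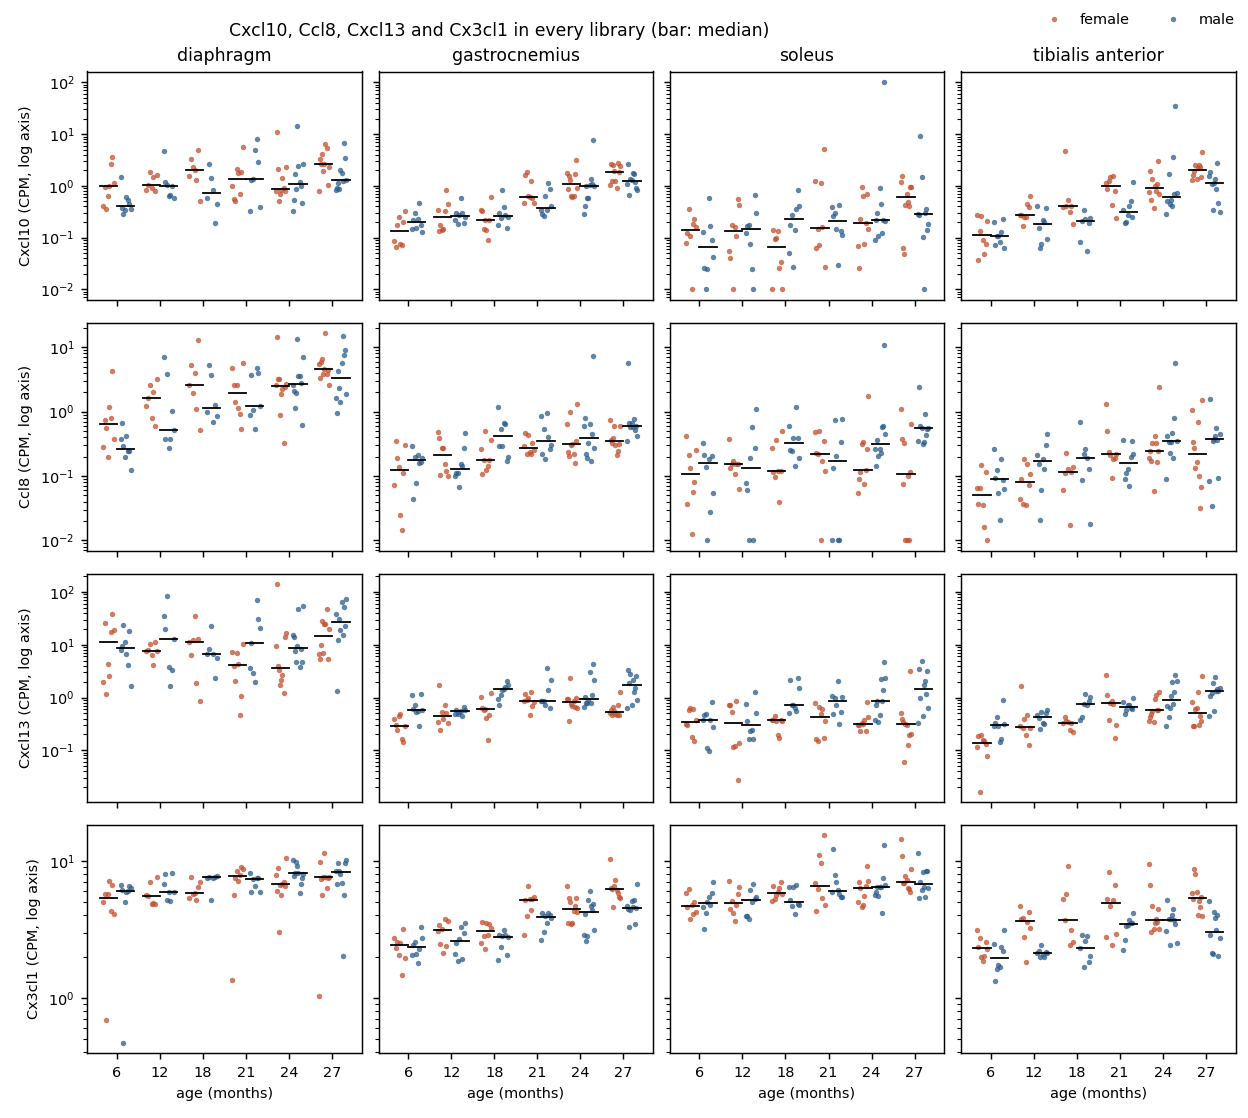
Levels of Cxcl10, Ccl8, Cxcl13 and Cx3cl1 in each library, in CPM on a log axis with values below 0.01 drawn at 0.01, by age, muscle and sex, with a bar at the median of each group. For Cxcl10, every library of gastrocnemius and tibialis anterior at 27 months lies above all libraries of 6 months, in both sexes.

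Ccl2 and Ccl7, monocyte attractants that bind Ccr2, were each called in all 4 muscles of males at 21 or 24 months. Ccl2 in the soleus was called at 24 months only (3.69 ± 0.92, adjusted p = 0.014, edgeR), a call lost without the library high in monocyte markers (below). At 27 months both genes were called in the male gastrocnemius, and Ccl7 in the male diaphragm. Ccl7 in the male gastrocnemius was at 0.0275 to 0.308 CPM (median 0.123, n = 8) at 6 months and 0.172 to 6.76 CPM (median 1.77, n = 8) at 21 months, with 7 of 8 mice above all young ones (4.18 ± 0.92, adjusted p = 0.00179). In the male diaphragm it was at 0.185 to 1.91 CPM (median 0.465) and 0.702 to 17.0 CPM (median 7.08) (3.65 ± 0.80, adjusted p = 0.00465). In the tibialis anterior the medians were 0.141 and 1.55 CPM (3.54 ± 0.93, adjusted p = 0.0137) and in the soleus 0.173 and 1.99 CPM (3.52 ± 0.96, adjusted p = 0.0461). The call in the soleus was lost with 7 of the 10 replicate numbers left out in turn, and that in the tibialis anterior with 2. In each muscle the groups overlapped. The male median of both genes was highest at 21 months in all 4 muscles, and for Ccl7 in the diaphragm it was 1.35 CPM at 24 and 1.43 CPM at 27 months.

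Ccl2 in the male gastrocnemius was at 0.0312 to 0.308 CPM (median 0.112) at 6 months, 0.234 to 5.16 CPM (median 1.14) at 21 months and 0.0553 to 3.30 CPM (median 0.413) at 27 months. Its log2 fold change was 3.72 ± 0.75, adjusted p = 0.000737 at 21 months and 2.46 ± 0.72, adjusted p = 0.00922 at 27 months, the latter lost on leaving out 1 number (adjusted p = 0.0682 without replicate 1). At 21 months it was also called in the diaphragm (2.53 ± 0.66, adjusted p = 0.0133) and tibialis anterior (3.33 ± 0.94, adjusted p = 0.0218), calls lost with 2 and 4 replicate numbers left out. In the soleus it did not pass (2.69 ± 0.91, adjusted p = 0.142). In females Ccl2 was called in the tibialis anterior at 21, 24 and 27 months (1.83, 1.97 and 1.87), from a median of 0.0506 CPM to 0.259 CPM, and in the gastrocnemius at 27 months (1.15 ± 0.33, adjusted p = 0.00662). Ccl7 passed in females once, in the tibialis anterior at 24 months (1.34 ± 0.48, adjusted p = 0.0447), and not without replicate 9 (adjusted p = 0.296).

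**Figure D4:**
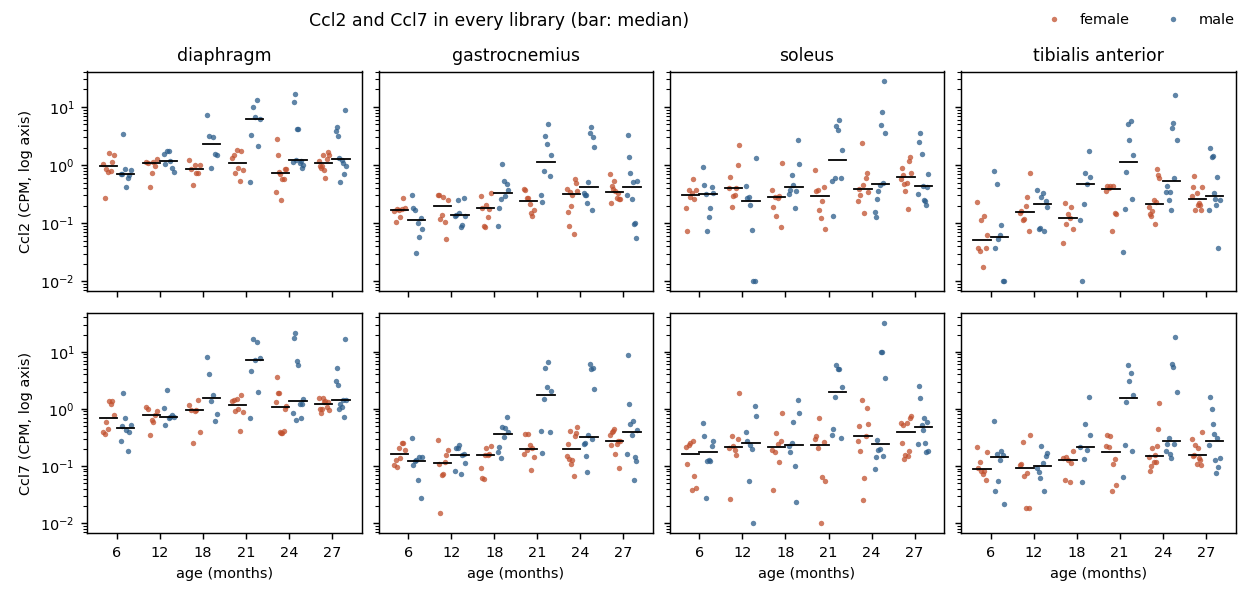
Levels of Ccl2 and Ccl7 in each library, in CPM on a log axis with values below 0.01 drawn at 0.01, by age, muscle and sex, with a bar at the median of each group. In males the medians of both genes are highest at 21 months in all 4 muscles.

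Ccl8 and Ccl12, CC ligands of the same cluster, were called in 7 combinations each. Ccl8 in the male diaphragm was at 0.123 to 0.667 CPM (median 0.266) at 6 and 0.966 to 14.7 CPM (median 3.28) at 27 months, without overlap (3.94 ± 0.70, adjusted p = 0.000566). In the male gastrocnemius it was at 0.0448 to 0.293 CPM (median 0.179) and 0.349 to 5.72 CPM (median 0.598), without overlap (2.70 ± 0.66, adjusted p = 0.00178), a call lost on leaving out 1 number (adjusted p = 0.0575 without replicate 1). In females the change at 27 months was 2.44 ± 0.60 in the diaphragm, 1.44 ± 0.43 in the gastrocnemius and 2.87 ± 0.70 in the tibialis anterior. Ccl12 was rare. In the female gastrocnemius it was at 0 to 0.0553 CPM (median 0.0220) at 6 and 0.0365 to 0.248 CPM (median 0.111) at 27 months, with 9 of 10 old mice above all young ones (2.50 ± 0.59, adjusted p = 0.000963). It was also called at 27 months in the female tibialis anterior (2.07 ± 0.63), the female diaphragm (1.59 ± 0.44, adjusted p = 0.0455) and the male gastrocnemius (2.13 ± 0.61, adjusted p = 0.00803). The call in the female diaphragm was lost with 8 of 10 replicate numbers left out.

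Among the receptors, Ccr2, which binds Ccl2 and Ccl7, was called in the tibialis anterior of females at 24 and 27 months. It was there at 1.18 to 2.57 CPM (median 2.04) at 6 and 2.22 to 9.94 CPM (median 4.33) at 27 months, with 9 of 10 old mice above all young ones (1.34 ± 0.30, adjusted p = 0.000822). It was also called at 24 months in the female gastrocnemius (0.61 ± 0.22, adjusted p = 0.0390), a call lost with 4 of 10 replicate numbers left out, and in the male tibialis anterior (1.65 ± 0.46, adjusted p = 0.0104), and there not without replicate 8 (adjusted p = 0.605). In males at 21 months, when Ccl7 was called in each muscle, the changes of Ccr2 did not pass and were -0.69 ± 0.26, -0.42 ± 0.37, -0.67 ± 0.50 and -0.38 ± 0.48 in diaphragm, gastrocnemius, soleus and tibialis anterior. Ccr1 in the male diaphragm was at 0.604 to 3.75 CPM (median 1.27) at 6 and 2.15 to 8.09 CPM (median 4.22) at 27 months (1.5 ± 0.39, adjusted p = 0.0154). In the female tibialis anterior it was called at 24 months (1.72 ± 0.44, adjusted p = 0.00423), with 8 of 10 mice above all young ones. In the male gastrocnemius it passed at 27 months (1.33 ± 0.46, adjusted p = 0.0281) and not without replicate 1 (adjusted p = 0.315). Replicate 1 of 27 months was also the highest of its group in Ccl2, Ccl7, Ccl8, Ccl12 and Cxcl10.

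Single libraries stood far apart in the male groups of 24 months. Replicate 8 of the soleus at that age held 27.4 CPM of Ccl2, 31.6 of Ccl7, 10.9 of Ccl8, 12.9 of Ccl12, 102 of Cxcl10, 23.9 of Ccr1 and 83.5 of Ccr2. The other libraries of the group reached at most 8.25, 9.90, 0.602, 0.456, 0.925, 4.23 and 4.96 CPM of these genes. In replicate 8 of the tibialis anterior Cxcl10 was at 35.7 CPM, where the others reached 3.66 CPM. Summed monocyte markers were 233 and 172 CPM in these libraries, and their medians in the groups were 0.544 and 0.729 CPM. Without libraries in which monocyte or B cell markers summed to over 100 CPM, the 7 members higher in the male soleus at 24 months (1.64% of all genes) became 1, which was Ccl7 (adjusted p = 0.0188), and the 10 in the male tibialis anterior (4.62%) became 7. Cxcl10 in the soleus went from 6.29 ± 1.35 to 1.13 (adjusted p = 0.625) and in the tibialis anterior from 5.20 ± 0.82 to 2.97 (adjusted p = 7.78e-05). The 3 calls of the female diaphragm at 27 months became 0 without such libraries, and the 11 of the male diaphragm stayed at 11.

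Cxcl13, the B cell attractant, rose in the limb muscles of both sexes but for the female soleus. In the female tibialis anterior it was at 0.0165 to 0.195 CPM (median 0.140) at 6 and 0.287 to 2.60 CPM (median 0.521) at 27 months, without overlap (2.58 ± 0.50, adjusted p = 0.000145). In the female gastrocnemius it was called from 18 months on, with medians of 0.292, 0.879 and 0.534 CPM at 6, 21 and 27 months (1.54 ± 0.35 and 1.01 ± 0.34). In males at 27 months the change was 2.32 ± 0.54 in the soleus, 1.89 ± 0.35 in the tibialis anterior and 1.37 ± 0.36 in the gastrocnemius. Cxcl13 was the only member called in the male soleus at that age, from 0.0984 to 0.841 CPM (median 0.370) to 0.323 to 4.96 CPM (median 1.46). In the diaphragm, where it was highest, it spread over 1.15 to 37.5 CPM (median 11.1) in females of 6 months and 5.38 to 46.7 CPM (median 14.8) in those of 27 months (0.37 ± 0.73). Cxcr5 was called at 27 months in the female gastrocnemius (2.34 ± 0.77, adjusted p = 0.0177) and tibialis anterior (2.02 ± 0.61, adjusted p = 0.0127), each call being lost with 1 of 10 replicate numbers left out. Beside these, edgeR called 0 of 5 and 0 of 4 B cell markers tested higher at 27 months, with 1 and 3 at an unadjusted p below 0.05 and 0 and 0 called by limma-voom and by DESeq2, and 2 of 3 and 1 of 1 plasma cell markers.

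Cx3cl1, fractalkine, is a chemokine of endothelium that is anchored in the membrane, and its folds were modest. In the female gastrocnemius it was at 1.48 to 3.20 CPM (median 2.41) at 6 and 4.61 to 10.2 CPM (median 6.18) at 27 months (1.45 ± 0.15, adjusted p = 2.75e-10), and in the male gastrocnemius at 1.80 to 3.28 CPM (median 2.37) and 3.29 to 6.72 CPM (median 4.55) (0.95 ± 0.15, adjusted p = 2.44e-06). All old mice were above all young ones in both, and in the female tibialis anterior (1.29 ± 0.24). The change was 0.74 ± 0.18 in the female soleus and 0.66 ± 0.16 in the male tibialis anterior, and it did not pass in the male soleus (0.55 ± 0.17) or in the diaphragm of females (0.54 ± 0.29) and males (0.48 ± 0.23). Of 40 tests of 5 endothelial markers in the 8 combinations at 27 months, edgeR called 0, limma-voom 0 and DESeq2 0, with 13 at an unadjusted p below 0.05. The part of endothelium in the change of Cx3cl1 was not tested. The receptor Cx3cr1 was called in the female gastrocnemius from 21 months on. It was at 0.219 to 0.528 CPM (median 0.382) at 6 and 0.683 to 1.64 CPM (median 0.856) at 27 months, without overlap (1.42 ± 0.24, adjusted p = 1.00e-05). It was also called in the female tibialis anterior at 27 months (1.10 ± 0.31).

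Receptors of T cells and dendritic cells were called as well. Cxcr6 in the male diaphragm was at 0.539 to 0.951 CPM (median 0.720) at 6 and 1.47 to 4.42 CPM (median 2.29) at 27 months, without overlap (1.80 ± 0.26, adjusted p = 2.58e-05). There 9 of 10 T and NK cell markers were called higher, and their sum was 1.41 to 2.56 CPM (median 2.08) at 6 and 1.10 to 36.4 CPM (median 13.4) at 27 months. Cxcr6 was also called at 27 months in the female diaphragm (1.5 ± 0.40), gastrocnemius (1.17 ± 0.40) and tibialis anterior (1.83 ± 0.58) and in the male gastrocnemius (1.67 ± 0.51), where edgeR called 0 of 10, 1 of 4, 3 of 3 and 0 of 3 such markers tested. In the female diaphragm 5 were below 0.05 before adjustment, while DESeq2 called 3 and limma-voom 0. In the male gastrocnemius 1 was below 0.05 before adjustment, while DESeq2 called 0 and limma-voom 0. Its call in the female diaphragm was lost with 5 of 10 replicate numbers left out. Xcr1, the receptor of cross-presenting dendritic cells, was called at 27 months in the female gastrocnemius (1.28 ± 0.31) and tibialis anterior (1.52 ± 0.45), where Clec9a, a marker of the same cells, was called too, as 1 of 4 dendritic cell markers tested in each. The part of these cells in the changes was not tested.

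Several calls came with 1 high library or with few reads. Ccl19, a ligand of Ccr7, was called in the female soleus at 27 months (2.75 ± 0.86), where 1 library had 3.23 CPM and the next 0.384 (adjusted p = 0.383 without replicate 8). Of its 76-base words 45.0% also occur elsewhere in the genome, so that its counts are uncertain. Cxcl5, a neutrophil attractant, was called in the male diaphragm at 27 months (3.81 ± 0.98) with 1 library at 12.4 CPM and the next at 0.589 (adjusted p = 0.279 without replicate 8). Ccl3, a ligand of Ccr1, was called there too, from 0 to 0.0569 CPM (median 0) to 0 to 1.19 CPM (median 0.0881) (4.04 ± 1.07, adjusted p = 0.0733 without replicate 7), as was Ccl4 (3.63 ± 1.15, adjusted p = 0.0404). Cxcr2, the neutrophil receptor, was called at 27 months in the male diaphragm (2.35 ± 0.63) and gastrocnemius (1.73 ± 0.53). Of the neutrophil markers tested there, 2 of 4 and 2 of 4 were called higher, and their sum went from 0.151 to 2.60 CPM (median 0.513) to 0.921 to 11.4 CPM (median 1.68) in the diaphragm and from 0.0937 to 0.488 CPM (median 0.236) to 0.400 to 2.25 CPM (median 0.607) in the gastrocnemius. Their part in the change of Cxcr2 was not tested. Ccl22, a ligand of regulatory T cells, was called at 27 months in the gastrocnemius of females (1.29 ± 0.41) and males (1.94 ± 0.62) and the female tibialis anterior (1.47 ± 0.54).

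Among the abundant members, Cxcl12 was called at no age, and its log2 fold changes at 27 months lay between -0.33 and 0.44. Those of Ccl11 lay between -0.67 and 0.21 and those of Cxcr4 between -0.50 and 1.04, also without a call. Cxcl14 was called once, in the female gastrocnemius at 27 months, from 25.1 to 30.7 CPM (median 27.9) to 37.4 to 50.2 CPM (median 39.1), without overlap and close to the fold limit (0.60 ± 0.08, adjusted p = 1.80e-07). The 1 call of a lower level was that of Ccl28 in the male gastrocnemius at 24 months (-0.70 ± 0.22, adjusted p = 0.0270), lost with 4 of 10 replicate numbers left out. Ccl25 was lower in the gastrocnemius at 27 months within the fold limit, and so not called. The changes were -0.52 ± 0.12 in females (adjusted p = 0.000461, edgeR) and -0.43 ± 0.12 in males (adjusted p = 0.00569). Of the 8 combinations, 1 had a change of Ccl25 above 0 at that age.

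Over the 6 ages, 4 members were higher and 4 lower in females than in males in the diaphragm (3.12% and 2.06% of all genes), 1 and 8 for gastrocnemius (5.05% and 3.12%), 1 and 10 for soleus (2.49% and 1.48%) and 1 and 7 for tibialis anterior (2.65% and 2.62%). Ccl2 was lower in females in each, with log2 differences of -1.33 ± 0.21, -1.07 ± 0.22, -1.09 ± 0.29 and -1.70 ± 0.31 in this order. For Ccl7 they were -1.33 ± 0.24, -1.61 ± 0.27, -1.48 ± 0.32 and -1.79 ± 0.32. Both are means over ages that include the high male groups of 21 and 24 months. At 6 months alone edgeR called 0, 3, 0 and 5 members in these muscles (0.241%, 5.21%, 3.2% and 3.95% of all genes), and Ccl2 in the gastrocnemius and Ccl7 in the diaphragm had differences of the other sign that did not pass (0.36, adjusted p = 0.455; 0.43, adjusted p = 0.975). Cxcl1, a neutrophil attractant, was called lower in females in all 4 muscles, again as a mean over ages. In the gastrocnemius its medians over all ages were 0.0885 CPM in females and 0.0877 CPM in males. At 6 months they were 0.124 and 0.0874 CPM there. Ccr1 and Cxcr2 were lower in the 3 limb muscles, Ccr1 most in the tibialis anterior (-1.37 ± 0.25) and Cxcr2 in the gastrocnemius (-1.14 ± 0.24). Ccl12 differed by -1.19 ± 0.24 in the gastrocnemius, and Cxcl13 and Ccr9 by -1.11 ± 0.22 and -1.80 ± 0.54 in the soleus. At 6 months alone Cxcl13 had a difference of the other sign in the soleus that did not pass. Its medians at that age were 0.3465 CPM in females and 0.3705 CPM in males. Ccr9 was near the floor in the soleus, with medians of 0 CPM in females and 0.00737 CPM in males. Its means of the age means were 0.0297 and 0.230 CPM. Cxcr5 was higher in females in the diaphragm, with medians of 4.00 and 2.05 CPM (0.99 ± 0.32).

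**Figure D5:**
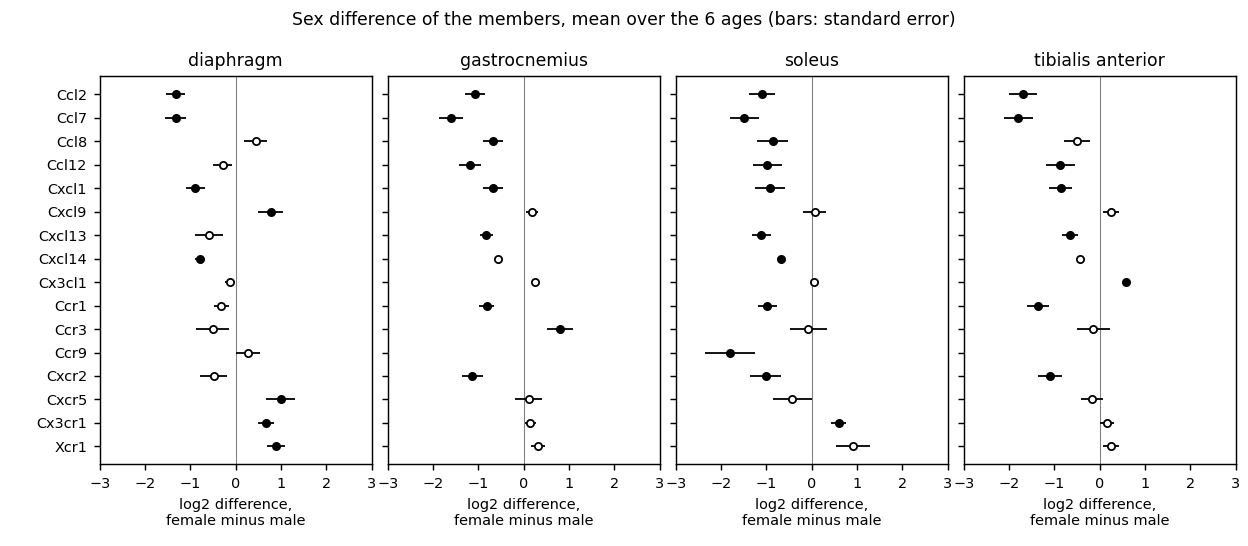
Log2 difference between females and males over the 6 ages in the 4 muscles for the members called in at least 1 of them, with the standard error, and filled points for members called. Ccl2 and Ccl7 lie below 0, lower in females, in all 4 muscles.

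Whether the change from 6 to 27 months differed between sexes or muscles was tested as an interaction. Between the sexes, that of Cxcl9 in the tibialis anterior was higher in females (1.97 ± 0.56, adjusted p = 0.0438), in 1 of 32 members, where 0.428% of all genes were called higher. DESeq2 called it too (adjusted p = 0.0221), but not limma-voom (adjusted p = 0.256) or the fit with the replicate block (adjusted p = 0.0781). The medians of Cxcl9 there were 0.882 CPM at 6 and 1.19 CPM at 27 months in females, and 1.04 and 0.908 CPM in males. Of the 10 mice of 27 months in each sex, 6 females and 2 males were above all young ones. In diaphragm, gastrocnemius and soleus edgeR, DESeq2 and limma-voom each called 0 of 39, 32 and 35 members, with 4, 7 and 6 at an unadjusted p below 0.05 in edgeR. Of all genes 0.0%, 0.572% and 0.34% were called there. In females Cxcl14 and Ccl11 had a lower change in the diaphragm than in the gastrocnemius (-0.88 ± 0.19, adjusted p = 0.000924; -0.64 ± 0.19, adjusted p = 0.0397), where 1.12% of all genes were called lower. Cx3cr1 and Cxcl14 had a lower change in the soleus than in the gastrocnemius (-1.46 ± 0.46, adjusted p = 0.0355; -0.66 ± 0.19, adjusted p = 0.0177), against 2.06% of all genes, and limma-voom did not call Cx3cr1. The female tibialis anterior had 0 calls against the gastrocnemius by each tool (1 at an unadjusted p below 0.05, 0.458% of all genes called). In males edgeR and limma-voom called 0 in diaphragm, soleus and tibialis anterior, where 2.11%, 0.388% and 0.0% of all genes were called, with 5, 4 and 0 at an unadjusted p below 0.05 in edgeR, and DESeq2 called 2 in the tibialis anterior. A call in 1 muscle or sex and none in another is, for the other members, not shown to be a difference between them.

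Of 52 other genes of the pathway 50 were in the tables. At 27 months 19 of 50 tested were higher in the male diaphragm (4.16% of all genes), 12 of 49 in the female tibialis anterior (5.93%), 5 of 50 and 5 of 50 in the gastrocnemius of females and males (4.08% and 3.88%) and 2 of 50 in the male tibialis anterior (2.81%), where limma-voom called 0. In the female diaphragm, female soleus and male soleus edgeR called 0, with 17, 14 and 5 at an unadjusted p below 0.05, limma-voom called 0, 0 and 0 and DESeq2 1, 1 and 0. Over the 8 combinations edgeR called 20 of 95 tests of the adhesion and homing genes and 23 of 224 of the signalling genes. Of the atypical receptors and scavengers it called 1 of 40. These counts include the 1 lower call given below, and no combination had more than 5.93% of all genes called higher. Itgal, an integrin chain that binds Icam1, rose by 2.28 in the male diaphragm (log2). Itgax and Itgal rose by 1.76 and 1.53 in the female tibialis anterior, Fgr, a kinase of myeloid cells, and Itgal by 1.08 and 1.05 in the female gastrocnemius, and Selp, an endothelial and platelet selectin, and Itgal by 1.23 and 1.07 in the male gastrocnemius. The 2 genes of the male tibialis anterior were Itgax (1.19) and Icam1 (0.66). The 1 lower gene was the kinase subunit Pik3cd in the male gastrocnemius (-0.62), where 1.53% of all genes were lower. Of the 5 NF-kB genes on the list edgeR called 0 of 40 tests at 27 months, limma-voom 0 and DESeq2 0, with 8 at an unadjusted p below 0.05.

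Markers of monocytes and macrophages moved with the members in part of the muscles. At 27 months 2 of 4, 3 of 4, 3 of 5 and 2 of 3 monocyte markers tested were called higher in the female gastrocnemius and tibialis anterior and the male diaphragm and gastrocnemius. Of the macrophage markers 2 of 9, 4 of 9, 2 of 9 and 2 of 9 were. In the female diaphragm and soleus and the male soleus and tibialis anterior edgeR called 0, 1, 0 and 0 of 5 monocyte markers. Limma-voom called 0, 0, 0 and 0 of them and DESeq2 3, 2, 0 and 3. Of 9 macrophage markers edgeR and limma-voom called 0 in each of these, and DESeq2 called 0, 0, 0 and 1. The monocyte sum was 0.174 to 0.678 CPM (median 0.383) at 6 and 0.356 to 6.76 CPM (median 1.21) at 27 months in the female tibialis anterior, 1.61 to 3.17 CPM (median 2.55) and 2.24 to 27.5 CPM (median 9.53) in the male diaphragm and 0.288 to 0.616 CPM (median 0.320) and 0.640 to 12.9 CPM (median 0.730) in the male gastrocnemius. Their part in the changes of the members was not tested. Muscle markers summed to 6202 CPM or more in every library. In 3 libraries of diaphragm and soleus liver markers summed to over 1000 CPM, and leaving these out lost 1 of the 156 calls. Liver markers also moved in the female tibialis anterior, where edgeR called 5 of 5 higher at 27 months (limma-voom 0), and their sum was 0.146 to 18.3 CPM (median 8.26) at 6 and 0.802 to 546 CPM (median 64.6) at 27 months. Their part in the 14 calls of members there was not tested.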

How the data were processed

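Total RNA of each muscle had been depleted of ribosomal RNA, made into strand-specific libraries and sequenced in paired reads of 76 bases. The authors mapped the reads to mm10 with ArrayStudio (version not given in the sources used here) and deposited read counts per gene of their own RefSeq-based gene model, 1 table per library. The sources used here do not state whether counting used strand, so that Ccl25, Cxcl16, Cxcr5, Cx3cr1 and Ccr9, which overlap a gene on the other strand, may hold its reads. Of 25091 rows, 633 (0.0335% of counts) were left out as further rows of a symbol listed more than once, of which the row with most counts was kept, leaving 24458 symbols. The members and lists were chosen with earlier results of these data known.

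Groups were taken from the labels. Counts were tested with edgeR 4.0.16 (R 4.3.3; TMM, filterByExpr, quasi-likelihood F test) in 1 fit per muscle and sex for age, per muscle for sex and per sex for muscle, with Benjamini-Hochberg adjustment over all genes tested. A gene was called at an adjusted p below 0.05 and a fold change above 1.5. CPM used TMM factors over all 407 libraries, and lengths were exon unions of GENCODE M21. Tests were checked on simulated counts. Alternatives were limma-voom (limma 3.58.1), DESeq2 1.42.0, RLE factors, no filter, no fold limit, stricter limits, the replicate number or the range of sample numbers as a block, each replicate number left out, 6 months only and, chosen after seeing the data, libraries high in liver or in monocyte or B cell markers left out. Named with full values were the members with the largest changes called at 27 months in each muscle and sex (up to 3), those called in at least 4 combinations, up to 3 per muscle and sex contrast and those called in an interaction, and of other pathway genes up to 2 per combination, 1 of which is not reported here. The remaining members named were chosen after their values were seen. No pair of libraries held identical counts.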

Additional observations from a re-analysis of the deposited data

Results flagged for a closer look

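The highest or lowest library stood apart from the rest of its group, by Dixon's test at the 95% level, in 14 of 42 groups tested, those of 6 and 27 months for the members with the largest calls at 27 months in each muscle and sex. In normally distributed values chance flags about 1 in 20 groups, a rate that need not hold for CPM of rare genes. The groups were also chosen for large changes, so that 14 of 42 cannot be set against that rate. All libraries flagged were high ones. In the female diaphragm Ccl8 reached 4.21 CPM at 6 months with the next library at 1.18, Ccl8 reached 16.7 CPM at 27 months with the next library at 6.49, Cxcr6 reached 2.21 CPM at 6 months with the next library at 1.14, Cxcr6 reached 11.6 CPM at 27 months with the next library at 3.07. In the female gastrocnemius Cxcr5 reached 0.457 CPM at 27 months with the next library at 0.233. In the female soleus Ccl19 reached 3.23 CPM at 27 months with the next library at 0.384. In the female tibialis anterior Cxcl10 reached 4.44 CPM at 27 months with the next library at 2.56. In the male diaphragm Ccl3 reached 1.19 CPM at 27 months with the next library at 0.421, Cxcl5 reached 12.4 CPM at 27 months with the next library at 0.589. In the male gastrocnemius Ccl7 reached 0.308 CPM at 6 months with the next library at 0.144, Ccl7 reached 8.92 CPM at 27 months with the next library at 1.22, Ccl8 reached 5.72 CPM at 27 months with the next library at 0.757. In the male tibialis anterior Ccl8 reached 1.55 CPM at 27 months with the next library at 0.554, Cxcl13 reached 0.880 CPM at 6 months with the next library at 0.432. Ccl7 and Ccl8 in the male gastrocnemius of 27 months were highest in the same library, replicate 1. The causes were not tested.

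The change from 6 to 27 months differed between groups in 5 tests of the difference itself. It was higher in females than in males for Cxcl9 in the tibialis anterior (1.97, not called by limma-voom). In females it was lower in the diaphragm than in the gastrocnemius for Ccl11 (-0.64) and Cxcl14 (-0.88), and lower in the soleus than in the gastrocnemius for Cxcl14 (-0.66) and Cx3cr1 (-1.46). These are log2 differences of the change.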

How the results depend on the processing

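Of the 156 calls with age 19 were kept in every setting, 63 in every setting but the stricter limits and 75 with each replicate number left out, and 0 changed direction. Limma-voom lost 64, the replicate block 51 and DESeq2 4. The counts of members called were at any older age 3, 17, 5, 19, 13, 16, 7, 11 and at 27 months 3, 14, 2, 14, 11, 12, 1, 4, in female and then male diaphragm, gastrocnemius, soleus and tibialis anterior. Between the sexes they were 8, 9, 11, 8 in this order of muscles. Only counts that another setting moved by more than 1.5 times follow. With libraries of 6 months only the counts were between the sexes 0 in diaphragm, 3 in gastrocnemius, 0 in soleus, 5 in tibialis anterior, and between muscles 14 in female gastrocnemius, 6 in female soleus, 12 in male gastrocnemius, 5 in male soleus, 14 in male tibialis anterior. With a Bonferroni adjusted p below 0.05 they were at any older age 0 in female diaphragm, 4 in female gastrocnemius, 0 in female soleus, 3 in female tibialis anterior, 2 in male diaphragm, 2 in male gastrocnemius, 0 in male soleus, 2 in male tibialis anterior, and at 27 months 0 in female diaphragm, 4 in female gastrocnemius, 0 in female soleus, 2 in female tibialis anterior, 2 in male diaphragm, 2 in male gastrocnemius, 0 in male soleus, 1 in male tibialis anterior, and between the sexes 3 in diaphragm, 3 in gastrocnemius, 2 in soleus, 4 in tibialis anterior, and between muscles 10 in female soleus, 10 in male gastrocnemius, 6 in male soleus, 15 in male tibialis anterior, and for the change by sex 0, and for the change by muscle 0. With DESeq2 they were at 27 months 4 in female soleus, 17 in male diaphragm, 2 in male soleus, and for the change by muscle 8. With an adjusted p below 0.01 they were at any older age 0 in female diaphragm, 10 in female gastrocnemius, 3 in female soleus, 12 in female tibialis anterior, 3 in male diaphragm, 8 in male gastrocnemius, 3 in male soleus, and at 27 months 0 in female diaphragm, 8 in female gastrocnemius, 1 in female soleus, 9 in female tibialis anterior, 2 in male diaphragm, 7 in male gastrocnemius, and between the sexes 7 in soleus, and for the change by sex 0, and for the change by muscle 1. With limma-voom they were at any older age 1 in female diaphragm, 3 in female soleus, 7 in male diaphragm, 0 in male soleus, 4 in male tibialis anterior, and at 27 months 1 in female diaphragm, 1 in female soleus, 5 in male diaphragm, 0 in male soleus, and between the sexes 4 in soleus, 5 in tibialis anterior, and between muscles 23 in male soleus, and for the change by sex 0. Without a filter on low counts the count was at any older age 18 in male tibialis anterior. Without the fold limit they were between the sexes 14 in diaphragm, 17 in gastrocnemius, 16 in tibialis anterior, and between muscles 27 in female soleus, 21 in male soleus. With the replicate number as a block (replicate block) they were at any older age 1 in female diaphragm, 3 in female soleus, 6 in male diaphragm, 10 in male gastrocnemius, 1 in male soleus, 6 in male tibialis anterior, and at 27 months 1 in female diaphragm, 1 in female soleus, 3 in male diaphragm, and for the change by sex 0. With the ranges of sample numbers as a term they were at any older age 2 in male soleus, and at 27 months 1 in female soleus, 2 in male diaphragm, and between muscles 7 in female soleus, 7 in male soleus. Without libraries high in monocyte or B cell markers, chosen after seeing the data, they were at any older age 0 in female diaphragm, 3 in male soleus, and at 27 months 0 in female diaphragm, 2 in male soleus. With each replicate number left out in turn the counts were at any older age 0 to 3 in female diaphragm, 10 to 18 in female gastrocnemius, 12 to 18 in female tibialis anterior, 7 to 15 in male diaphragm, 10 to 18 in male gastrocnemius, 3 to 7 in male soleus, and at 27 months 0 to 3 in female diaphragm, 1 to 4 in female soleus, 4 to 14 in male diaphragm, 5 to 15 in male gastrocnemius, 0 to 2 in male soleus, 2 to 6 in male tibialis anterior. The difference of Ccr9 between male soleus and the other muscles changed sign with limma-voom (-0.98, adjusted p = 0.00104). With 6 months only, that of Ccl22 did too (0.19), as did the sex differences of Ccl7 in the diaphragm (0.427), Ccl2 in the gastrocnemius (0.357), Ccl8 in the soleus (0.0922) and Cxcl13 in the soleus (0.0553), none of which passed. The causes were not tested.

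Libraries with the same replicate number in different ages of a muscle and sex deviated together little. Their median r was 0.025 over 939 pairs, 278 of them above 0.1, and that of pairs with other numbers was 0.001. Of 406 libraries 66 correlated best with their own number. The numbers were not taken to pair mice, and why calls were lost under the replicate block was not tested. Across muscles of the same sex and age the median was 0.072 over 599 pairs, and -0.01 for pairs with other numbers. There 159 of 407 libraries correlated best with their own number, a hint from the data only. The main fits between muscles treated libraries as independent, so that their p-values take no account of such a pairing. Members with few counts were tested in some muscles and not in others, and a difference below the spread of a few reads per library was not detectable at this depth.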
